A study of Mus musculus and Homo sapiens with 23 samples.

Results

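The solute carriers are a superfamily of membrane proteins, named Slc with a family number, the letter a and a member number, and 141 genes with such a symbol were expressed in BV2 cells by the measure used here. BV2 is an immortalised mouse cell line made from microglia, the macrophages that live in the brain, so the data describe 1 line grown in culture. One RNA library came from unstimulated BV2 cells and 1 from BV2 cells given lipopolysaccharide (LPS), a bacterial cell wall product sensed by Toll-like receptor Tlr4, for 3 h. The labels name no genetic change in either group and no dose of LPS. The series holds 23 samples and was built to follow histone acetylation across cell types and through the response of microglia to LPS. The other 21 samples are chromatin samples and were not analysed here.

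Genes were taken as members when their summed level reached 1 FPKM in at least 1 of the 2 libraries. FPKM counts sequenced fragments scaled to transcript length and to the size of the library, so levels can be compared between genes. Of 347 Slc symbols with the letter a that were measured, 151 reached that level. Well-studied carriers of glucose, lactate, cystine, arginine, citrate and iron were set aside by name, 11 symbols in all and 10 of them among those 151, which left 141 of 10035 genes expressed at that level and of 21598 genes measured. Because the level in these same libraries chose the members, their levels and counts are a description. Of the members, 122 were at 1 FPKM or more in both libraries, 16 only without LPS and 3 only with it, namely Slc6a4, Slc22a4 and Slc49a4. The 16 and the 3 reached the threshold only through the library in which they were higher, so the filter fixed their direction. Among the 16, Slc25a40, Slc26a11 and Slc46a3 were called lower below, and among the 3, Slc6a4 and Slc49a4 were called higher. Just inside the threshold stood Slc36a2 at 1.17 and 0.370 FPKM (unstimulated, then LPS) and Slc25a15 at 1.18 and 0.813. Beside them stood Slc25a47 at 1.19 and 0.976 FPKM and Slc9a7 at 1.11 and 1.21. Just outside stood Slc2a8, a glucose carrier, at 0.993 and 0.623 FPKM, and Slc6a9, a glycine carrier, at 0.920 and 0.918 FPKM. A further 108 Slc symbols were listed at 0 FPKM in both libraries, and 88 lay between 0 and 1 FPKM.

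Solute carriers move sugars, amino acids, nucleosides, vitamins, metals and ions across the plasma membrane and the membranes of organelles. Most of them run down a gradient or couple the passage of 1 solute to that of another or of sodium or protons, without splitting ATP themselves. Microglia and other macrophages rely on carriers of the plasma membrane to take up nutrients, on carriers of the lysosome to release the products of digestion, and on mitochondrial carriers, the Slc25 family, to join metabolism in the cytosol to that in mitochondria. Of the members, 3 carry a carrier's name without being carriers: Slc9a3r1, a scaffold that binds a sodium/proton exchanger, Slc7a6os, which is named for lying on the strand opposite a carrier gene, and Slc4a1ap, named as a partner of an anion exchanger. The other 138 fall into 42 families together with these, and they were grouped by what they carry.

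Each group was 1 library, so there was no test, and every difference below compares these 2 libraries and has no replicate check. The interval after an FPKM value is the 95% interval deposited with it, which reflects how many fragments support the value and how they were assigned, not how cultures vary. Change below means log2(FPKM + 1) after LPS minus the same without LPS, which understates the change of genes at low FPKM. A gene is called higher or lower where the change was at least 1 in size, a fold of 2 on that scale. Where 2 FPKM values stand together, the unstimulated library comes first. In bulk RNA, less RNA in each cell and fewer cells with that RNA cannot be told apart. The libraries behaved as their labels say for the stimulus: of the 6 LPS response genes checked (Tnf, Il1b, Il6, Nfkbia, Cxcl10 and Ccl5), 6 were called higher. Of 11 microglia and macrophage markers measured, 10 were at 1 FPKM or more, led by Tyrobp at 4128 and 3064 FPKM, while Cx3cr1 stayed under 1 FPKM in both. None of 6 neuron markers reached 1 FPKM, 5 of them being listed at 0 in both libraries, and of the astrocyte, oligodendrocyte, endothelial with fibroblast, and lymphocyte lists 1 marker each did (Aldoc, Cnp, Kdr and Il7r).

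After 3 h of LPS, 15 Slc genes were higher and 19 were lower, and 107 stayed within the rule, 74 of them with separate intervals. On the log2(FPKM + 1) scale the largest gain was in Slc2a6, a glucose transporter family member of lysosomes. With a pseudocount of 0.1 that of the serotonin carrier Slc6a4, nearly absent before LPS, was larger (5.24 against 4.52). Gains were also seen in carriers of peptides (Slc15a3), copper (Slc31a2), zinc (Slc39a2, Slc39a1, Slc30a1), aromatic amino acids (Slc16a10) and nucleobases (Slc43a3). The genes that were lower included carriers of sulfate (Slc26a11), sugar phosphates (Slc37a2, Slc37a4), taurine (Slc6a6), sialic acid (Slc17a5), acetyl-CoA (Slc33a1) and glutamine with other neutral amino acids (Slc38a2). The shares called, 10.6% higher and 13.5% lower, lay near those over all 10035 expressed genes, 8.55% higher and 12.4% lower, so the counts say nothing particular about solute carriers. Counts by class below are descriptions to be set beside these same shares of all expressed genes. They cover members only, without the carriers set aside by name. The median change was -0.17 over the members and -0.24 over all expressed genes. The summed FPKM of the members was 2735 without LPS and 3193 with it, or 0.495% and 0.487% of the FPKM of all expressed genes.

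The split into higher and lower moved with the scaling of the 2 libraries. Of the called members 44.1% were higher and 55.9% lower as reported, and of all called genes 40.7% were higher. With FPKM rescaled to TPM, so that both libraries have the same sum, 23.3% of the called members were higher and 76.7% lower, beside 24.8% of all called genes higher. With the libraries scaled to equal medians 55.9% were higher and 44.1% lower, and with quantile normalisation 60.0% and 40.0%, beside 52.3% and 53.0% of all called genes higher. The splits of the members thus lay near those of all genes and moved with them. The 3 scalings shifted the median change of all expressed genes by -0.24, 0.15 and 0.11. The deposited intervals of the libraries were separate for 108 members (76.6%), 43 of them with the higher value after LPS (30.5%) and 65 with the lower (46.1%), beside 73.6%, 25.1% and 48.5% of all expressed genes. All 34 called members had separate intervals. With a pseudocount of 5 in place of 1, which shrinks the changes of genes at low FPKM, 20 of the 34 calls were lost. Those that were higher were Slc6a4, Slc12a4, Slc25a22, Slc25a44, Slc30a1, Slc44a1 and Slc49a4. Those that were lower were Slc6a13, Slc6a17, Slc10a7, Slc17a5, Slc17a9, Slc25a36, Slc25a40, Slc26a11, Slc33a1, Slc37a4, Slc39a10, Slc43a2 and Slc46a3. Losses under a scaling are given below beside each gene. Calls were also gained, by 14 members with TPM, 4 with equal medians and 4 with quantile normalisation, and not all of these are named.

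**Figure D1:**
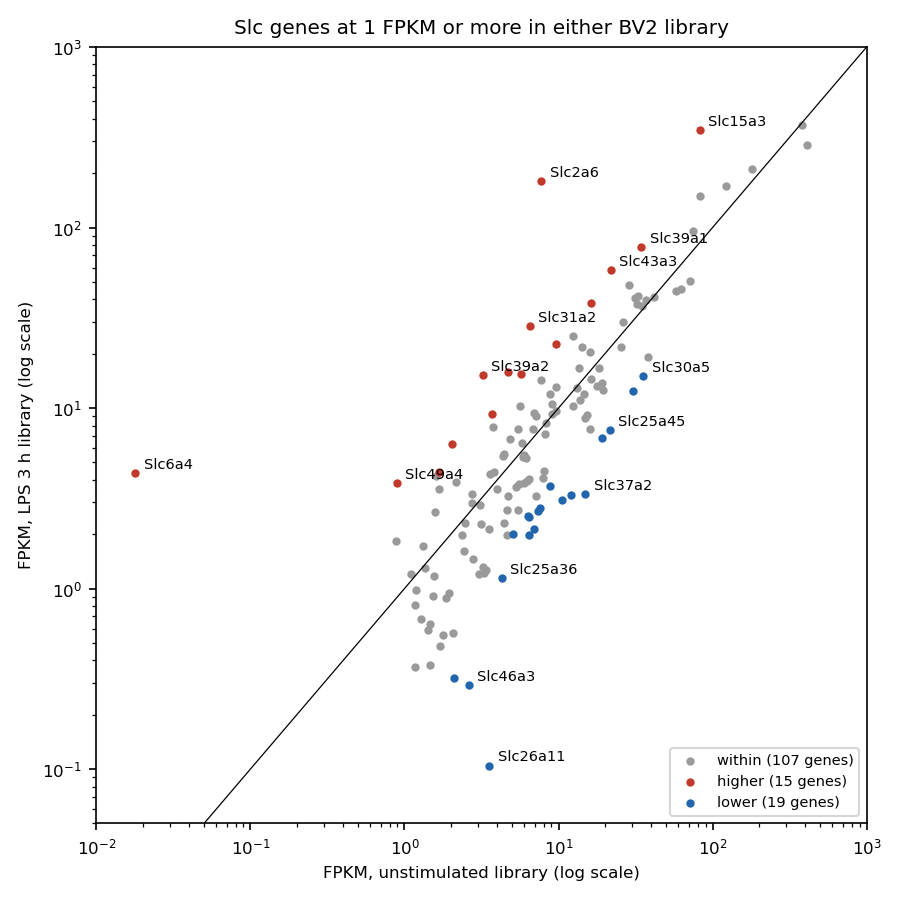
FPKM of each of the 141 Slc genes in the unstimulated library (x axis, log scale) against the LPS library (y axis, log scale), 1 library each, with red for higher, blue for lower and grey for within the rule; the line marks equal levels. Most genes follow the line over the range of levels, Slc2a6 stands far above it at 7.73 and 180.0 FPKM, and Slc26a11 far below it at 3.55 and 0.105 FPKM.

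Of the members, 8 were carriers of sugars and sugar phosphates, without the glucose carriers set aside by name. Of these 1 was higher (12.5%) and 3 were lower (37.5%), beside 8.55% and 12.4% of all expressed genes. Slc2a6 was at 7.73 FPKM (6.87 to 8.58) in the unstimulated library and at 180.0 FPKM (176 to 184) in the LPS library. Its level was 23.3-fold higher (20.8 to 26.1) after LPS, a change of 4.37, and its rank by FPKM among the expressed genes went from 5222 to 548. It lies on chromosome 2 at 26876885 to 26883518 in the mm9 build. Slc37a2, which exchanges sugar phosphates for phosphate and is known from macrophages, was at 14.9 FPKM (14.1 to 15.8) unstimulated and 3.34 FPKM (1.11 to 6.46) after LPS. That is 4.47-fold lower (1.75 to 11.4), with a wide interval in the LPS library that still lay below the unstimulated one. Slc37a4, which brings glucose 6-phosphate into the endoplasmic reticulum, was at 7.36 and 2.67 FPKM, 2.75-fold lower (2.21 to 3.42), and its call was lost under quantile normalisation. Slc17a5, or sialin, which lets sialic acid out of lysosomes, was at 6.94 and 2.14 FPKM, 3.24-fold lower (2.68 to 3.92). The most abundant member of the class before LPS, the sugar transporter Slc50a1, was at 57.7 and 44.3 FPKM and did not pass the rule.

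The stretch of 250 bases before the most upstream annotated start is shown for 4 called genes. Short motifs of transcription factors that act in LPS or metal responses were searched for in the same stretch before every annotated start. The sequences and coordinates are from RefSeq in the GRCm38.p6 build, each written along the gene's own strand, and 107 members matched an entry, with 150 starts. The 4 were picked after their values were seen: Slc2a6 for its change, Slc6a12 and Slc37a2 for carrying a match to the kappaB motif of NF-kB with opposite changes, and Slc30a1 as a known target of the metal-sensing factor MTF1. Capitals mark the matches to 1 motif on either strand, kappaB in Slc6a12 and Slc37a2 and the metal response element in Slc30a1, while matches to the other motifs are left in lower case. The windows shown for Slc6a12 and Slc37a2 also hold 1 match each to the AP-1 motif TGANTCA. The windows of the other annotated starts of Slc6a12 hold no kappaB match. Slc2a6 (chr2:27027999-27028248, minus strand) has no kappaB match in this window, Slc6a12 (chr6:121342324-121342573, plus strand) has 2, Slc37a2 (chr9:37255739-37255988, minus strand) has 1, and Slc30a1 (chr1:191906531-191906780, plus strand) has 1 metal response element.
Slc2a6: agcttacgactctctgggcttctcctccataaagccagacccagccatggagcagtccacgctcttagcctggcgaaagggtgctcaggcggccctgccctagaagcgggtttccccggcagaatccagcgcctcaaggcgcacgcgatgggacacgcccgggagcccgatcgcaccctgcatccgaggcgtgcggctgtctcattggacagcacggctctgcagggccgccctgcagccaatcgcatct
Slc6a12: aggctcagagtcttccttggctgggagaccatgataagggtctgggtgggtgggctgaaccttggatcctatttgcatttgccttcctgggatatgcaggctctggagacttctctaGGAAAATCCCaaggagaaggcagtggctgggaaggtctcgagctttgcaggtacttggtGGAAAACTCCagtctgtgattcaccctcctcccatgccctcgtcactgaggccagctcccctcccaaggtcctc
Slc37a2: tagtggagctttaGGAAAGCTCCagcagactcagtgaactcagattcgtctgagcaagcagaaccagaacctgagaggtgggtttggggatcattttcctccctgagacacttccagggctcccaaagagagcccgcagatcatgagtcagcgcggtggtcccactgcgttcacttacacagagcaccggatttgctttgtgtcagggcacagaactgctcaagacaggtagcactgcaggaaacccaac
Slc30a1: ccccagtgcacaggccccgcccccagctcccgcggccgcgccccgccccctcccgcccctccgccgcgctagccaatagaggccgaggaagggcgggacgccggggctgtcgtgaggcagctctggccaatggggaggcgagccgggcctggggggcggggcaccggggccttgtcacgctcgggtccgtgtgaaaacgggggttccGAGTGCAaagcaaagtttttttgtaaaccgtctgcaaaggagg

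The kappaB matches of Slc6a12 began 133 and 74 bases before its most upstream start. That of Slc37a2 began 237 bases before the start shown, and the metal response element of Slc30a1 43 bases before the start shown. Across all 32851 RefSeq starts of 27025 genes, a kappaB match stood in 9.55% of the windows. It stood in 11.3% of the 150 windows of members, in 2 of 19 windows of genes that were higher and in 6 of 22 of genes that were lower. Those windows came from only 12 of the 15 higher and 15 of the 19 lower genes. Some genes gave several windows, and overlapping windows of Slc37a4 are among the 6. The metal response element was searched in its TGCACNC and TGCGCNC forms, on both strands. They stood in 10.4% and 12.5% of all windows and in 18 and 29 of the 150 windows of members. The E-box CACGTG, bound by factors of lysosomal and metabolic genes, stood in 6.02% of all windows and 13.3% of those of members. Of its 20 windows in members 16 lay in genes within the rule, which held 109 of the 150 windows of members. The other 4 motifs searched on both strands were TGANTCA, in 6.75% of all windows and 7.33% of those of members, TGACGTCA, in 1.55% and 2.00%, TGATGNAA, in 3.45% and 2.67%, and the interferon-stimulated response element, in 2.98% and 1.33%. Slc49a4, which was higher, and Slc30a5, which was lower, each had a kappaB match and a CACGTG in a window. All windows include starts of genes not expressed in BV2, and shares over expressed genes alone were not computed. Whether a share is particular to solute carriers was therefore not tested. A match describes letters only and is no evidence of binding, and several starts of 1 gene share sequence.

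**Figure D2:**
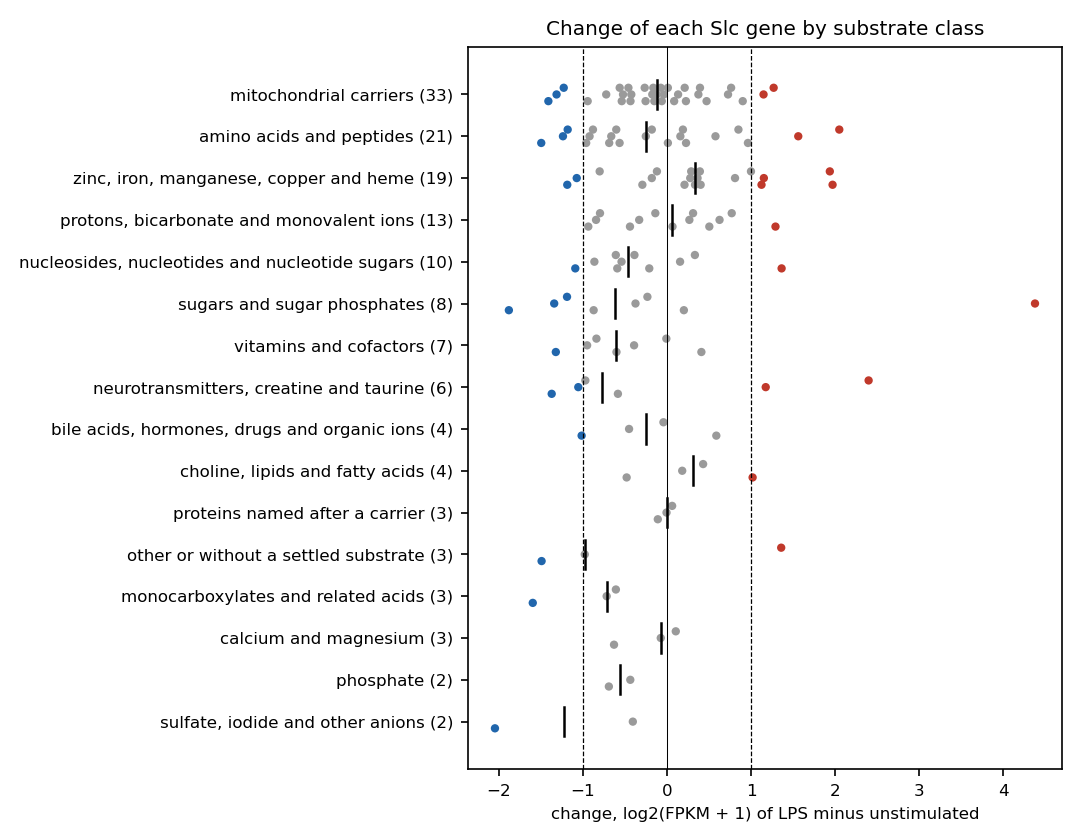
Change of each Slc gene (x axis, log2(FPKM + 1) of LPS minus unstimulated) by substrate class (y axis, number of genes in brackets), with red for higher, blue for lower, grey for within the rule, a black bar for the class median and dashed lines at the rule of size. The metal carriers have a median of 0.33 and the sugar carriers one of -0.62, with Slc2a6 alone at the far right at 4.37.

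The carriers of zinc, iron, manganese, copper and heme among the members numbered 19, without the iron carriers set aside by name. Of these 4 were higher (21.1%) and 2 lower (10.5%), beside 8.55% and 12.4% of all expressed genes. Their median change was 0.33, and 13 of the 19 had the higher FPKM after LPS. Among these 13, Slc39a7 turned to -0.03 with TPM. The median stayed above 0 under each scaling, from 0.10 with TPM to 0.51 with equal medians, but with TPM 2 were higher and 3 lower. Slc31a2, a copper carrier of internal membranes, was at 6.52 FPKM (5.66 to 7.37) and 28.4 FPKM (26.7 to 30.2), 4.36-fold higher (3.77 to 5.04) after LPS. Its relative Slc31a1, which brings copper into the cell, lies 62.3 kb away and was at 8.82 and 11.97 FPKM, a change of 0.40.

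Zinc is carried into the cytosol by the Slc39 (ZIP) family and out of it by the Slc30 (ZnT) family. Slc39a2 was at 3.23 FPKM (2.70 to 3.75) and 15.2 FPKM (14.1 to 16.3), 4.70-fold higher (3.93 to 5.62). Slc39a1, an importer of the plasma membrane, was at 34.4 FPKM (32.7 to 36.1) and 77.7 FPKM (75.2 to 80.2), 2.26-fold higher (2.13 to 2.40). Slc39a14, which takes up zinc and also iron, was at 1.61 and 4.22 FPKM, a change that rounds to 1.00 and was just short of the rule. Slc39a10, another importer, went the other way, at 8.85 and 3.69 FPKM and 2.40-fold lower (2.13 to 2.70), while Slc39a6, known to pair with it, was at 13.5 and 16.8 FPKM. The abundant Slc39a7, which frees zinc from the endoplasmic reticulum, was at 32.3 and 37.5 FPKM in sum. Its transcript rows went both ways, NM_001077709 from 12.4 to 9.47 FPKM and NM_008202 from 19.8 to 28.0 FPKM.

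On the export side, Slc30a1, the zinc exporter of the plasma membrane, was at 3.71 FPKM (3.35 to 4.08) and 9.28 FPKM (8.71 to 9.85), 2.50-fold higher (2.22 to 2.81). Slc30a5, which loads zinc into the secretory pathway, was at 35.6 FPKM (34.1 to 37.1) and 15.1 FPKM (14.2 to 16.0), 2.35-fold lower (2.19 to 2.54). Slc30a6, its partner in a heterodimer, was at 7.67 and 14.2 FPKM, so the pair had opposite signs of change, -1.18 and 0.81. Slc30a7 of the Golgi was at 4.87 and 6.71 FPKM. The calls of Slc39a1 and Slc30a1 were lost with TPM, and that of Slc39a10 with equal medians and quantile normalisation. The heme carrier Slc48a1 was the most abundant of the class before LPS, at 74.3 and 96.0 FPKM.

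**Figure D3:**
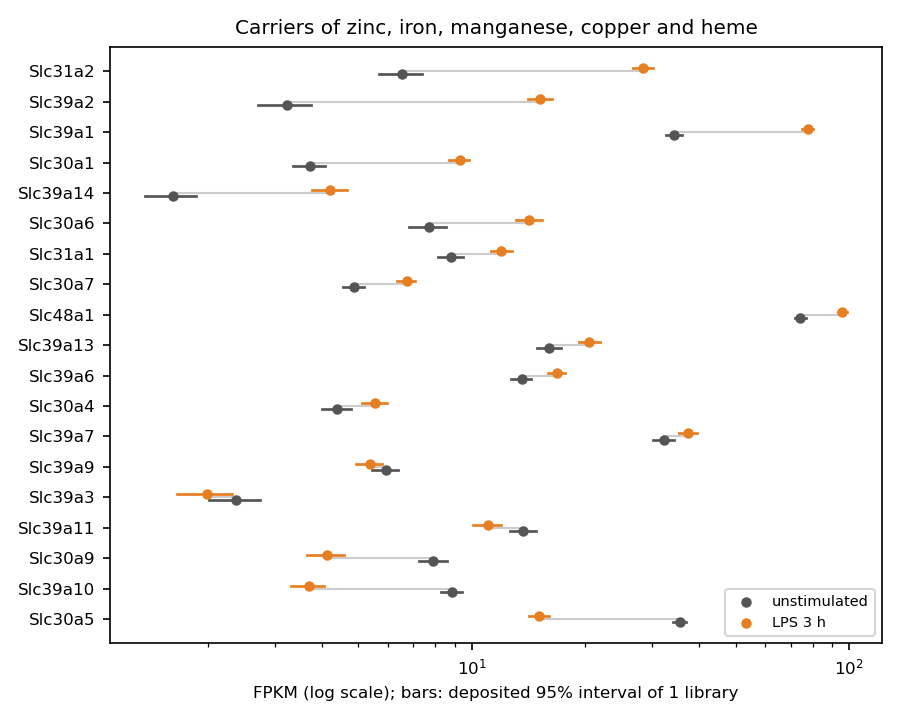
FPKM of the 19 carriers of zinc, iron, manganese, copper and heme (x axis, log scale), ordered by change, with grey points for the unstimulated and orange points for the LPS library and bars for the deposited 95% interval of each single library. Slc31a2 and Slc39a2 at the top are separated most, and Slc30a5 and Slc39a10 at the bottom have the orange point on the left.

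Carriers of amino acids and peptides numbered 21, with 2 higher (9.52%) and 3 lower (14.3%), beside 8.55% and 12.4% of all expressed genes. Their median change was -0.25, and with TPM 6 were lower. Slc15a3, which moves histidine and short peptides across endosomal and lysosomal membranes, was at 82.9 FPKM (80.3 to 85.6) and 346 FPKM (341 to 352), 4.18-fold higher (4.03 to 4.33). Its locus, chromosome 19 at 10917034 to 10932405 in mm9, overlaps that of Tmem132a, which was at 4.55 and 9.47 FPKM. Its close relative Slc15a4 was at 6.13 and 5.30 FPKM, with overlapping intervals. Slc16a10, a carrier of aromatic amino acids, was at 4.73 FPKM (4.21 to 5.25) and 15.9 FPKM (15.0 to 16.8), 3.36-fold higher (2.97 to 3.81).

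The values of carriers of glutamine and other neutral amino acids went both ways. Slc38a2, a sodium-coupled carrier of small neutral amino acids, was at 30.5 FPKM (29.4 to 31.6) and 12.4 FPKM (11.7 to 13.1), 2.46-fold lower (2.30 to 2.63). Its neighbour Slc38a1, a glutamine carrier 44.5 kb away on chromosome 15, was at 14.3 and 21.8 FPKM. Slc1a5, another glutamine carrier, was at 38.1 and 19.1 FPKM, and its change of -0.96 just missed the rule. It passed the rule with TPM, at -1.21, and with quantile normalisation, at -1.03. Slc6a17, which loads neutral amino acids into vesicles of neurons, was at 10.5 FPKM (9.90 to 11.0) and 3.07 FPKM (2.78 to 3.37), 3.40-fold lower (3.05 to 3.80). Each of the 3 Slc36 genes, proton-coupled carriers of small amino acids, had a lower FPKM after LPS. Their changes ran from -0.92 to -0.66, and none of them passed the rule. Slc36a2 was a member only through the unstimulated library, so the filter fixed its direction.

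Slc3a2, the heavy chain that brings several light chains of the Slc7 family to the cell surface, was at 82.9 FPKM (80.3 to 85.5) and 150.3 FPKM (147 to 154), a change of 0.85 and short of the rule. The values of its light chains among the members went different ways. Slc7a5, the carrier of large neutral amino acids, was at 9.12 and 9.21 FPKM with overlapping intervals. Slc7a8, with a similar substrate range, was at 12.3 and 25.0 FPKM, Slc7a6 was at 14.8 and 8.83 FPKM, and Slc7a7 was at 1.32 and 1.71 FPKM. Slc43a2, which carries large neutral amino acids without a heavy chain, was at 7.62 and 2.81 FPKM, 2.71-fold lower (2.36 to 3.11). Its 3 transcript rows did not move together: NM_173388 was at 1.97 and 2.26 FPKM, NM_001199283 at 2.98 and 0.554, and NM_001199284 at 2.67 FPKM before LPS and close to 0 after it. Taken by its highest row alone the change of Slc43a2 was 0.13, the reverse of the call, which was also lost under quantile normalisation. The rows of Slc38a10 also went both ways, NM_001164799 from 10.5 to 3.07 FPKM and NM_001164800 from 1.86 to 5.58 FPKM, while their sum was at 12.4 and 10.3 FPKM.

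**Figure D4:**
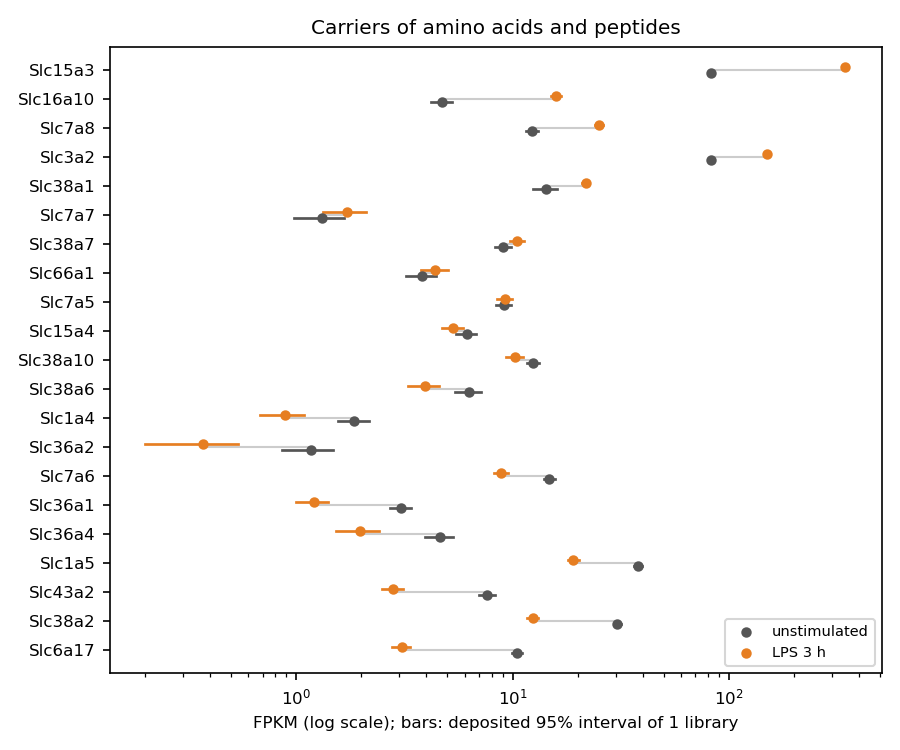
FPKM of the 21 carriers of amino acids and peptides (x axis, log scale), ordered by change, with grey points for the unstimulated and orange points for the LPS library and bars for the deposited 95% interval of each single library. Slc15a3 and Slc16a10 at the top and Slc38a2 and Slc6a17 at the bottom have intervals far apart, while those of Slc7a5 overlap at 9.12 and 9.21 FPKM.

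Of the 33 mitochondrial carriers, 2 were higher (6.06%) and 3 lower (9.09%), beside 8.55% and 12.4% of all expressed genes, and 28 were within the rule. Their median change of -0.12 became 0.05 with equal medians and -0.34 with TPM. The most abundant were Slc25a4 and Slc25a5, which exchange ADP for ATP, at 412 and 287 FPKM and at 383 and 368 FPKM. The phosphate carrier Slc25a3 followed at 179 and 210.1 FPKM, and Slc25a39, a glutathione carrier, at 123 and 171 FPKM. These 4 supply oxidative phosphorylation and mitochondrial redox balance, and none passed the rule.

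Slc25a22, which brings glutamate into mitochondria, was at 9.62 FPKM (8.76 to 10.5) and 22.6 FPKM (21.2 to 23.9), 2.34-fold higher (2.11 to 2.61), a call that was lost with TPM. Slc25a44, a carrier of branched-chain amino acids, was at 2.03 and 6.30 FPKM in sum, 3.10-fold higher (2.19 to 4.41). Row NM_001145877 held nearly all of it before LPS and was at 2.03 and 2.18 FPKM, so the gain lay in the rows NM_001145876, at 0 and 2.93 FPKM, and NM_178696, at 0.00464 and 1.19 FPKM. The locus also overlaps a transcript without a symbol in the name table, NR_027357, at 5.98 and 3.70 FPKM, and the part of shared fragments was not tested. The iron carriers of mitochondria, Slc25a37 at 3.74 and 7.85 FPKM and Slc25a28 at 28.5 and 47.9 FPKM, had changes of 0.90 and 0.73 and did not pass the rule.

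Slc25a45 was at 21.6 FPKM (20.1 to 23.2) and 7.53 FPKM (6.63 to 8.42), 2.87-fold lower (2.50 to 3.30). Slc25a36, which carries pyrimidine nucleotides, was at 4.30 FPKM (3.78 to 4.83) and 1.14 FPKM (0.875 to 1.40), 3.78-fold lower (2.91 to 4.91). Slc25a33, a carrier of the same substrates, was at 2.75 and 3.34 FPKM with overlapping intervals. Slc25a40, the paralog of Slc25a39, was at 2.09 FPKM (1.70 to 2.47) and 0.320 FPKM (0.173 to 0.466), 6.52-fold lower (3.98 to 10.7), far below Slc25a39 in both libraries. Slc25a40 was a member only through the unstimulated library. The calls of Slc25a36 and Slc25a40 were lost under quantile normalisation.

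Carriers of neurotransmitters, creatine and taurine numbered 6, with 2 higher and 2 lower. Slc6a4, the serotonin carrier, was at 0.0179 FPKM (0 to 0.0537) unstimulated, a value the interval implies to rest on 1 fragment, and at 4.36 FPKM (3.82 to 4.91) after LPS, on 256 fragments. The ratio was 244 with an exact binomial interval from the 2 fragment counts of 43.4 to 9664, so its size is poorly known. Slc6a12, which carries betaine and GABA, was at 16.2 FPKM (15.1 to 17.4) and 37.9 FPKM (36.3 to 39.6), 2.34-fold higher (2.15 to 2.53). Its neighbour Slc6a13, a carrier of GABA and taurine whose locus ends 8.98 kb from it on chromosome 6, was at 6.29 FPKM (5.53 to 7.06) and 2.52 FPKM (2.04 to 2.99), 2.50-fold lower (2.00 to 3.13). These adjacent paralogs were thus called in opposite directions, although the call of Slc6a12 was lost with TPM and that of Slc6a13 with equal medians and quantile normalisation. Slc6a6, the taurine carrier, was at 19.2 FPKM (18.4 to 19.96) and 6.82 FPKM (6.38 to 7.27), 2.81-fold lower (2.61 to 3.04), and the creatine carrier Slc6a8 was at 19.3 and 12.6 FPKM.

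Of 10 carriers of nucleosides, nucleotides and nucleotide sugars, 1 was higher and 1 lower. Slc43a3, a carrier of purine nucleobases, was at 21.9 FPKM (20.6 to 23.2) and 58.0 FPKM (55.9 to 60.0), 2.65-fold higher (2.47 to 2.83). Slc17a9, which loads ATP into vesicles, was at 6.40 FPKM (5.63 to 7.16) and 2.48 FPKM (2.01 to 2.94), 2.58-fold lower (2.07 to 3.22), and the call was lost with equal medians and quantile normalisation. The nucleoside carrier Slc29a1 was at 32.7 and 41.5 FPKM and its relative Slc29a2 at 3.21 and 1.32 FPKM, both within the rule. The 5 Slc35a genes, which supply nucleotide sugars to the Golgi, each had a lower summed FPKM after LPS. Their changes ran from -0.61 to -0.21, none past the rule, and Slc35a2 turned to 0.22 by its highest row. Slc35a1 and Slc35a5 were members only through the unstimulated library, so the filter fixed their direction.

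Carriers of protons, bicarbonate and monovalent ions numbered 13, with 1 higher and none lower, and a median change of 0.07 that became -0.08 with TPM, where 3 were lower. Slc12a4, a potassium-chloride cotransporter that lets cells shed salt, was at 5.74 FPKM (5.20 to 6.29) and 15.5 FPKM (14.6 to 16.4), 2.70-fold higher (2.42 to 3.01). Slc12a2, which brings sodium, potassium and chloride in, was at 1.79 and 0.556 FPKM, and the anion exchanger Slc4a2 at 7.09 and 9.05 FPKM. Neither of them passed the rule, though Slc12a2 passed it with TPM, at -1.19, and with a pseudocount of 0.1, at -1.53. Slc12a2 was a member only through the unstimulated library, so the filter fixed its direction.

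Among 7 carriers of vitamins and cofactors 1 was lower. Slc33a1, which takes acetyl-CoA into the endoplasmic reticulum, was at 6.41 FPKM (5.78 to 7.04) and 1.97 FPKM (1.63 to 2.31), 3.25-fold lower (2.66 to 3.98). The carrier of reduced folate, Slc19a1, was at 17.7 and 13.3 FPKM, the vitamin C carrier Slc23a2 at 9.61 and 13.1 FPKM, and the riboflavin carrier Slc52a2 at 9.61 and 9.57 FPKM. With TPM 3 of the 7 were lower.

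Of 4 carriers of choline and fatty acids, 1 was higher. Slc44a1, a choline carrier, was at 1.67 FPKM (1.24 to 2.09) and 4.40 FPKM (3.74 to 5.07), 2.64-fold higher (1.96 to 3.56), a call lost with TPM. Its relative Slc44a2 was at 26.3 and 30.0 FPKM. Slc27a1, a fatty acid transport protein, was at 70.9 and 50.6 FPKM, and Slc27a4 was at 5.42 and 7.66 FPKM.

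The remaining classes held 4 members or fewer. Slc26a11, a carrier of sulfate and chloride, was at 3.55 FPKM (3.04 to 4.06) and 0.105 FPKM (0.0192 to 0.190), 34.0-fold lower (14.8 to 77.8), with 6 implied fragments behind the LPS value. It was a member only through the unstimulated library. Slc16a6, a member of the monocarboxylate family, was at 12.02 FPKM (11.3 to 12.8) and 3.31 FPKM (2.04 to 5.02), 3.63-fold lower (2.16 to 6.09). Its locus overlaps that of Arsg, which was at 8.51 and 2.70 FPKM, and the part of shared fragments in the result was not tested. Slc10a7 was at 5.08 and 2.01 FPKM, 2.52-fold lower (2.09 to 3.05), and its call was lost with equal medians and quantile normalisation. The organic cation carrier Slc22a4 was at 0.886 and 1.83 FPKM.

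Slc49a4, a lysosomal membrane protein, was at 0.889 FPKM (0.697 to 1.08) and 3.85 FPKM (3.45 to 4.24), 4.32-fold higher (3.40 to 5.49). Slc46a3, also of lysosomes, was at 2.63 FPKM (2.16 to 3.09) and 0.293 FPKM (0.142 to 0.445), 8.96-fold lower (5.19 to 15.5). Slc49a4 was a member only through the LPS library and Slc46a3 only through the unstimulated one. None of the carriers of phosphate (2 genes), of calcium and magnesium (3 genes), or of the 3 proteins named after a carrier passed the rule. The phosphate carriers Slc20a1 and Slc20a2 were at 15.4 and 9.16 FPKM and at 5.28 and 3.65 FPKM. Slc24a5, a calcium exchanger known from pigment cells, was listed at 36.7 and 39.6 FPKM, but its locus overlaps that of Myef2, at 29.1 and 26.0 FPKM, and how fragments were divided between the 2 genes was not tested.

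**Figure D5:**
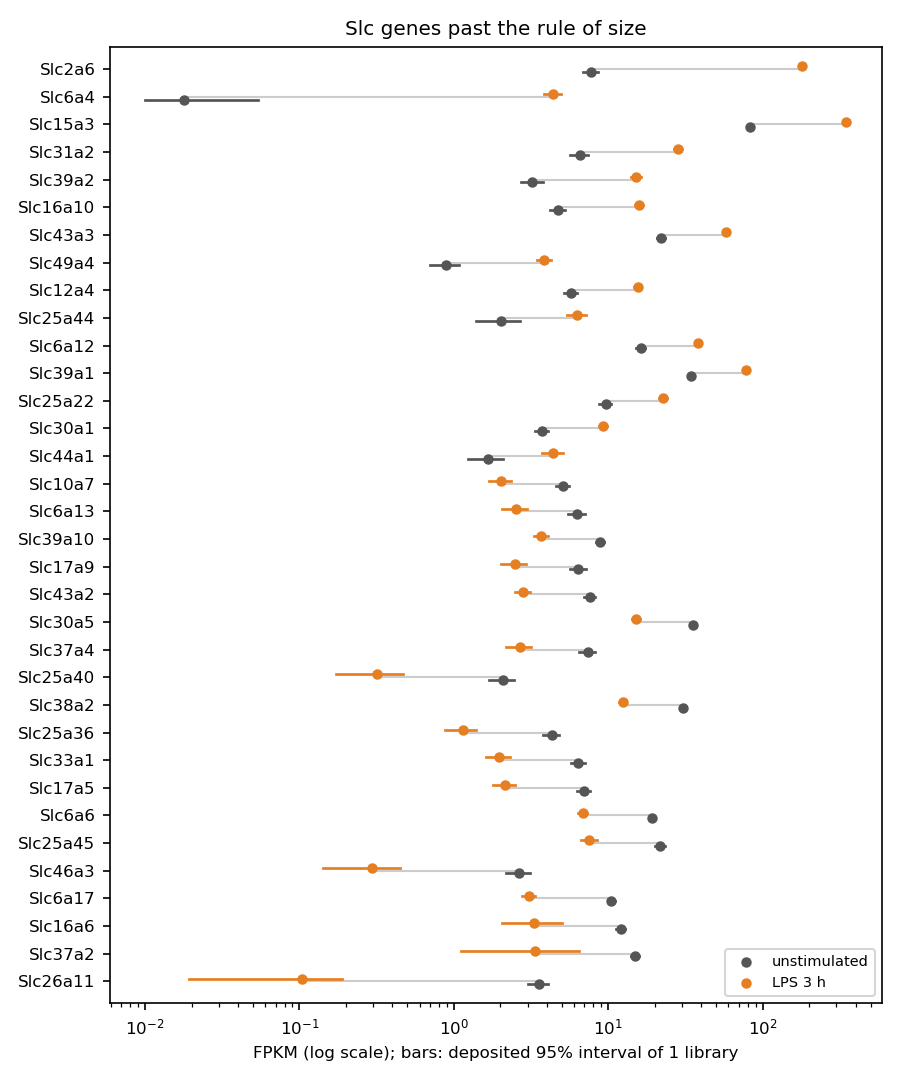
FPKM of the 34 Slc genes past the rule of size (x axis, log scale), ordered by change, with grey points for the unstimulated and orange points for the LPS library and bars for the deposited 95% interval of each single library. Intervals of the 2 libraries are separate for all 34, the unstimulated interval of Slc6a4 reaches 0 and is cut off by the log axis, and those of Slc37a2 and Slc16a6 in the LPS library are the widest among the genes that were lower and above 1 FPKM.

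Of 14 expressed genes with Slc symbols of the letters b to g, 0 were called. Of 31 expressed carriers of the superfamily with other names, 0 were higher and 5 (16.1%) were lower, beside 8.55% and 12.4% of all expressed genes. Their median change was -0.44, beside -0.24 over all expressed genes. The 5 were Xpr1, the phosphate exporter, at 4.85 and 1.17 FPKM, Ank at 13.4 and 4.54 FPKM, the lysosomal cystine carrier Ctns at 7.64 and 2.35 FPKM, Flvcr1 at 6.13 and 1.77 FPKM, and Mfsd11 at 14.3 and 5.59 FPKM. Among 9 expressed chaperones and ancillary chains of carriers, Pdzk1ip1 was higher, at 12 and 120.0 FPKM, and Ostm1, which accompanies a lysosomal chloride exchanger, was lower, at 6.88 and 2.10 FPKM. Each was 11.1% of the 9. Bsg, the chain that brings lactate carriers to the surface, was at 356 and 547 FPKM.

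The amino acid response, the set of genes that the factor Atf4 switches on when amino acids run short, includes several carriers of neutral amino acids among its targets. Of 18 of its expressed genes, chosen without the carriers, 2 were higher (11.1%) and 3 lower (16.7%), beside 8.55% and 12.4% of all expressed genes. Their median change was -0.08. Nupr1 was at 20.6 and 254 FPKM and Ppp1r15a at 13.0 and 87.0 FPKM, while Ddit4 was at 9.31 and 0.702 FPKM. Ddit4 was counted as expressed only through the unstimulated library. Atf4 itself was at 239 and 248 FPKM and Asns, the asparagine synthetase, at 49.6 and 72.7 FPKM, neither past the rule.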

How the data were processed

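RNA of 1 unstimulated and 1 LPS-stimulated BV2 culture was sequenced from strand-specific libraries with 76-base reads, per the labels' protocols. The authors deposited FPKM values with 95% bounds for 28246 RefSeq transcript rows per library, made with Cufflinks on mm9, per the submitters' processing notes. The sources used here do not state versions, the aligner or whether counting used strand, so overlapping genes on opposite strands may share fragments (12 members overlap another expressed gene). Symbols came from a RefSeq table of GRCm38.p6, used for names and promoter sequences, which matched 27560 rows (97.6%). The 686 unmatched rows kept their own identifiers.

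Rows not OK in both libraries (391, of which 1 was an Slc row) and 703 small RNA rows were left out, and rows were summed per symbol (29 members have more than 1), with interval half-widths combined in quadrature. The interval widths imply about 13800000 and 16900000 fragments. Intervals of ratios combine both libraries' bounds. Analyses used Python 3.11.15, pandas 2.3.3 and numpy 2.4.6. The code of the calling rule was checked on a copy of the unstimulated library with set changes and no noise. That check says nothing about error rates with 1 library per group. The members, classes and lists were chosen with earlier results of these data known, and the class of a few symbols was amended after the symbols were seen. Every member past the rule may be named, with the 3 most abundant of a class, partners, members nearest the threshold and up to 3 genes of each other list past the rule; other genes were chosen after their values were seen, and a few genes are not reported here. The alternatives were pseudocounts of 0.1 and 5, a filter of 5 FPKM or none, TPM, equal medians, quantile normalisation and the highest transcript row.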

Additional observations from a re-analysis of the deposited data

How the results depend on the processing

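No paired analysis was possible because each group is 1 library. As reported 15 members were higher and 19 lower. With a pseudocount of 5, 8 were higher and 6 lower, and classes with a called member fell from 13 to 7. With a pseudocount of 0.1, 33 were lower, with TPM 33, and with quantile normalisation 12. Over all expressed genes the 1248 lower genes became 2061 with a pseudocount of 0.1, 354 with a pseudocount of 5 and 2280 with TPM. Of the 34 called members, 12 kept their call under all 8 alternatives: Slc2a6, Slc15a3, Slc16a10, Slc31a2, Slc39a2 and Slc43a3 as higher, and Slc6a6, Slc16a6, Slc25a45, Slc30a5, Slc37a2 and Slc38a2 as lower. The other 22 lost it under at least 1, 20 of them with a pseudocount of 5, which shrinks changes of genes at low FPKM. Slc43a2 turned to 0.13 by its highest transcript row, and Slc25a44 then was at 0.07. Depth limits the 49 members under 5 FPKM in both libraries most.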

Other observations

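Of 27 expressed ABC transporters, which split ATP to move their cargo, 2 were higher (7.41%) and 4 lower (14.8%), near the 8.55% and 12.4% of all expressed genes, and the median change was -0.19. Abcd2, which takes very long fatty acids into peroxisomes, was at 12.2 FPKM unstimulated and 0.504 FPKM after LPS, a change of -3.14. Abcd3, also of peroxisomes, was at 12.6 and 5.56 FPKM and Abca9 at 1.64 and 0.207 FPKM, both called lower. Abcd2 and Abca9 were counted as expressed only through the unstimulated library. The drug and glutathione-conjugate exporter Abcc1 was at 3.68 and 10.5 FPKM and its relative Abcc5 at 6.25 and 16.8 FPKM, both called higher.

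Of 17 expressed P-type ATPases, ion and lipid pumps, 1 was higher (5.88%) and 2 lower (11.8%), with a median change of -0.53, and these shares too were near those of all genes. Atp2b1, a calcium pump of the plasma membrane, was at 21.9 and 8.22 FPKM and Atp13a3 at 10.4 and 4.57 FPKM, while Atp13a4 was at 0.154 and 2.69 FPKM. Atp1b3, a chain of the sodium pump, was at 220.5 and 185 FPKM and did not pass the rule. Of 11 aquaporins measured, 1 was expressed: Aqp3, a channel for water and glycerol, was at 0.321 and 3.95 FPKM. Atp13a4 and Aqp3 were counted as expressed only through the LPS library.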
